A study of Mus musculus with 8 samples.

Results

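The Fc gamma receptors are the cell surface receptors through which leucocytes bind immunoglobulin G. The 5 genes described here are the 3 activating receptors Fcgr1, Fcgr3 and Fcgr4, their shared signalling chain Fcer1g, and the inhibitory receptor Fcgr2b. They were chosen by gene symbol, and all 5 were found among the 693 genes measured. Activating receptors signal through the gamma chain encoded by Fcer1g, whose tyrosine motif recruits the kinase Syk and leads to phagocytosis, cytokine release and killing of antibody-coated cells. Fcgr2b carries an inhibitory motif of its own, which recruits the phosphatase encoded by Inpp5d and dampens signals from activating receptors and from the B cell receptor. In mouse tumours these genes are expressed mainly by macrophages and monocytes, with Fcgr4 also on neutrophils, Fcgr3 also on NK cells and mast cells, and Fcgr2b also on B cells.

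RNA came from whole buccal tumours of 4MOSC1, a mouse oral squamous carcinoma line, grown in female C57BL/6N mice that were 4 to 6 weeks old at implantation. In the CXCL10 group, 4 tumours were injected with 10 µg of the chemokine CXCL10 in 50 µl of phosphate-buffered saline on days 3, 6 and 9. In the vehicle group, 4 tumours received 50 µl of the saline alone on the same days. Titles give day 10 as the day of harvest in both groups, whereas the source labels run from day 10 to 13 in the vehicle group and from 14 to 17 in the CXCL10 group. If the source labels are right, day and treatment cannot be told apart. All tumours came from 1 cell line. Whether every tumour had a separate host is not stated in the labels, and p-values therefore refer only to variation among the 8 tumours.

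Levels are log2 normalized probe counts, and whole counts recovered from them summed to between 973697 and 1167694 per tumour. Counts of the 5 members ran from 523 for Fcgr3 to 17721 for Fcgr2b, so that the counting error was at most 4.37% of any member's value. Each gene was read by its own probe, so levels are compared between tumours and never between genes. Of 5 measured epithelial and carcinoma cell markers, 4 had higher and 1 had lower means in CXCL10 tumours (2 higher under each of 3 other scalings). Their summed normalized counts ran from 31484 to 61375 in CXCL10 tumours and from 22228 to 37181 in vehicle tumours, and keratin genes were not analysed here. Most of each sum came from Anxa1, a gene picked after its values were seen, with mean log2 levels of 15.03 and 14.20 in that order. The median log2 difference of the list was 0.07, and between -0.047 and -0.010 under the 3 other scalings. In whole tumours, fewer cells of a type and less RNA per cell cannot be told apart.

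In the RefSeq annotation of GRCm38.p6, Fcgr2b, Fcgr4 and Fcgr3 are consecutive protein-coding genes on chromosome 1. Fcer1g follows on the same chromosome with 7 other protein-coding genes between, and Fcgr1 lies on chromosome 3. Promoter windows of 300 bases, from 250 bases before to 50 bases after the annotated start, were found in RefSeq for all 5 members. They were searched on both strands for GAGGAA, the core bound by the myeloid factor PU.1. The windows of the 3 activating receptors and of the inhibitory one are shown, because the comparison turns on these 4 genes. Each is printed 5′ to 3′ on the strand of the gene, with matches in capitals. Their positions in GRCm38.p6 are chr3:96293920-96294219 (minus strand) for Fcgr1, chr1:171059354-171059653 (minus strand) for the first of the 2 annotated starts of Fcgr3, chr1:171018676-171018975 (plus strand) for Fcgr4 and chr1:170976022-170976321 (minus strand) for Fcgr2b.
Fcgr1: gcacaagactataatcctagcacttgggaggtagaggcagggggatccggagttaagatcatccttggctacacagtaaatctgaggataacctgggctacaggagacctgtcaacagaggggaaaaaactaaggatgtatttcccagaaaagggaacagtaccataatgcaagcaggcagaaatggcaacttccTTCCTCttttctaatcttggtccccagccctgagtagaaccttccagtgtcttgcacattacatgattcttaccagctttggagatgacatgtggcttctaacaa
Fcgr3: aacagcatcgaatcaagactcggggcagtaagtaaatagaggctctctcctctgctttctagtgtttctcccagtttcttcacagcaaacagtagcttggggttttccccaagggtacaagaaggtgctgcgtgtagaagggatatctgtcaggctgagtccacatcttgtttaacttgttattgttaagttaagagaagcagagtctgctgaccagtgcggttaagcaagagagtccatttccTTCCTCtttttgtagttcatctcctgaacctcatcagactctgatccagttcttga
Fcgr4: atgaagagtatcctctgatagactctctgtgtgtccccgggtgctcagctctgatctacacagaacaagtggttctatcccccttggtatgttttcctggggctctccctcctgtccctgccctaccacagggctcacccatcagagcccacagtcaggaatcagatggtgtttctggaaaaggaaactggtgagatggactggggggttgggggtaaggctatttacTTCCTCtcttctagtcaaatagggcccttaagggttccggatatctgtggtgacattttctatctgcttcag
Fcgr2b: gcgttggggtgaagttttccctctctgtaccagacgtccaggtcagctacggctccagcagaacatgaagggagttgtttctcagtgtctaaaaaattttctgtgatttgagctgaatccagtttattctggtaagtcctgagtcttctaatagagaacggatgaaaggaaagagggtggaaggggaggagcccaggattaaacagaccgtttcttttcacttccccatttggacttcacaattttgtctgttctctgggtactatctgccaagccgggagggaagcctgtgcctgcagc
GAGGAA was present once in the windows of Fcgr1, Fcgr3 and Fcgr4, and was not found in those of Fcgr2b and Fcer1g. Each time it lay on the strand opposite to that of the gene, and it is therefore printed as TTCCTC. It starts 55 bases before the annotated start in Fcgr1 and 22 bases before in Fcgr4. In Fcgr3 it starts 6 bases before the first annotated start and 15 bases before the second. For comparison, 28.3% of all 32851 windows of the same length held GAGGAA, as did 35.7% of the 633 windows of genes on the panel. These matches describe letters in a window, and no binding was measured.

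The comparison of CXCL10 with vehicle tumours asked whether Fc gamma receptor RNA changed with the chemokine. It did not change detectably: 0 of the 5 members passed limma's test at an adjusted p under 0.05 over the 693 genes, and 0 had an unadjusted p under 0.05. Over the whole panel 2 genes passed, both higher, which is 0.289% of genes, and 132 genes (19%) had an unadjusted p under 0.05. Nor did the 2 groups of tumours separate for any member. Over the panel they separated for 75 genes (10.8%), 7.79% of all genes on the higher side and 3.03% on the lower. With only 5 members, counts of 0 do not set them apart from these panel shares. The differences of the members ran from -0.14 for Fcgr3 to 0.16 for Fcgr2b on the log2 scale, with a median of 0.02 beside 0.13 over all 693 genes.

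Fcgr1 (Entrez 14129), the high-affinity receptor, had log2 levels of 9.57, 10.35, 9.93 and 9.92 in CXCL10 tumours 1 to 4, against 9.81, 10.17, 9.96 and 9.75 in vehicle tumours 1 to 4. CXCL10 tumours 2 and 1 lay above and below all vehicle tumours, and the other two lay among them. The difference was 0.02 (95% confidence interval -0.36 to 0.40, limma adjusted p = 0.961), a fold change of 1.01 with bounds of 0.778 and 1.32.

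Fcgr4 (Entrez 246256), a low-affinity receptor that serves antibody-dependent killing by mouse myeloid cells, had levels of 10.32, 10.99, 10.91 and 10.89 in CXCL10 tumours, against 10.73, 10.98, 10.60 and 10.59 in vehicle tumours. CXCL10 tumour 1 stood low, and the 3 others lay near the highest vehicle tumour. The difference was 0.06 (95% confidence interval -0.32 to 0.43, limma adjusted p = 0.873), and without CXCL10 tumour 1 it was 0.21 (adjusted p = 0.376).

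Fcgr3 (Entrez 14131), the low-affinity receptor that mouse NK cells and macrophages use, had levels of 9.02, 9.97, 9.45 and 8.99 in CXCL10 tumours, against 9.46, 9.55, 9.52 and 9.47 in vehicle tumours. The CXCL10 tumours spread widely around a narrow vehicle group: 3 of the 4 lay below every vehicle tumour and tumour 2 lay above every one. The highest CXCL10 tumour stood 1.97-fold above the lowest, against 1.07-fold in the vehicle group. The difference in means was -0.14 (95% confidence interval -0.59 to 0.31, limma adjusted p = 0.724). Without CXCL10 tumour 2 it was -0.35 (adjusted p = 0.250).

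Fcer1g (Entrez 14127), the signalling chain, had levels of 10.77, 11.49, 11.08 and 11.33 in CXCL10 tumours, against 11.16, 11.41, 11.09 and 11.23 in vehicle tumours. The groups overlapped, with CXCL10 tumour 2 the highest and CXCL10 tumour 1 the lowest of the 8. The difference was -0.05 (95% confidence interval -0.42 to 0.31, limma adjusted p = 0.881), and without CXCL10 tumour 1 it was 0.08.

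Fcgr2b (Entrez 14130), the inhibitory receptor, had levels of 13.28, 14.22, 13.58 and 13.50 in CXCL10 tumours, against 13.33, 13.50, 13.62 and 13.48 in vehicle tumours. Tumour 2 alone stood above the vehicle range, by more than the whole width of that range, and tumour 1 lay just below it. The difference was 0.16 (95% confidence interval -0.26 to 0.58, limma adjusted p = 0.660), and without CXCL10 tumour 2 it was -0.03 (adjusted p = 0.921). The intervals of all 5 members include 0 and reach from -0.59 for Fcgr3 to 0.58 for Fcgr2b.

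**Figure D1:**
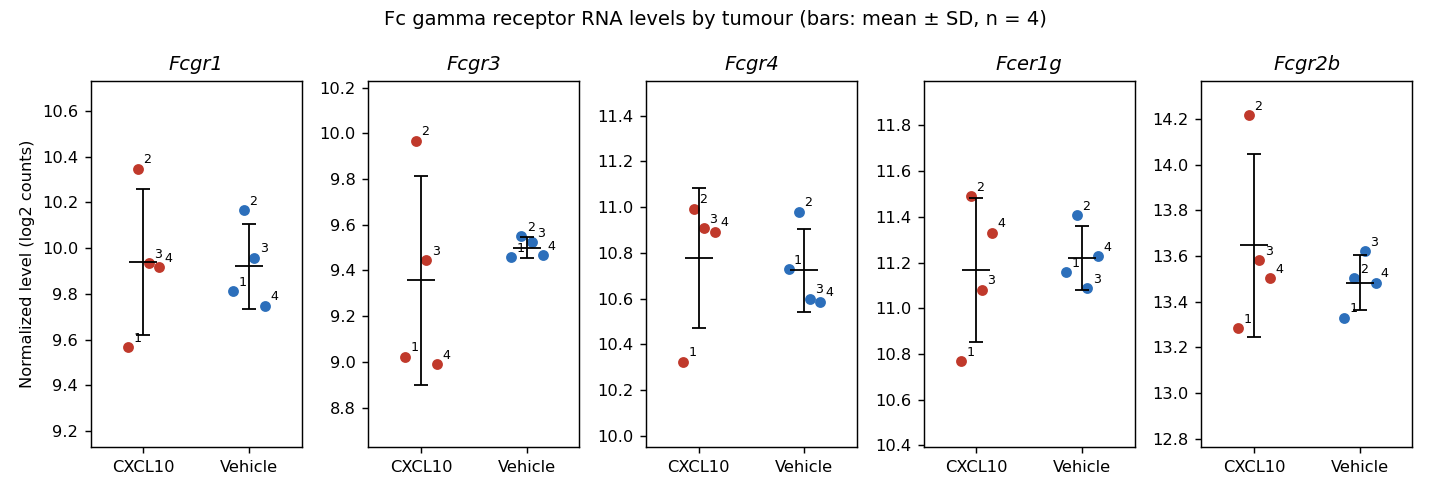
Log2 normalized level of each member in each tumour, CXCL10 tumours on the left of each panel and vehicle tumours on the right, with numbers giving the tumour and bars the mean ± SD (n = 4 each). CXCL10 tumour 2 is the highest CXCL10 tumour in every panel, and the vehicle values of Fcgr3 lie within 1.07-fold of each other.

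Other ways of scaling the tumours to each other did not bring any member past the threshold, but set the differences lower. The panel's median difference of 0.13 was 0.02 under median-of-ratios scaling, 0.05 after centring each tumour on its panel median and 0.01 under quantile normalization. Fcgr1 and Fcgr4, slightly above 0 on the authors' scaling, were slightly below 0 under all 3 others, at -0.085, -0.059 and -0.10 for Fcgr1 and at -0.050, -0.024 and -0.051 for Fcgr4 in that order. Fcgr3 and Fcer1g stayed below 0 and Fcgr2b above 0 in each.

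**Figure D2:**
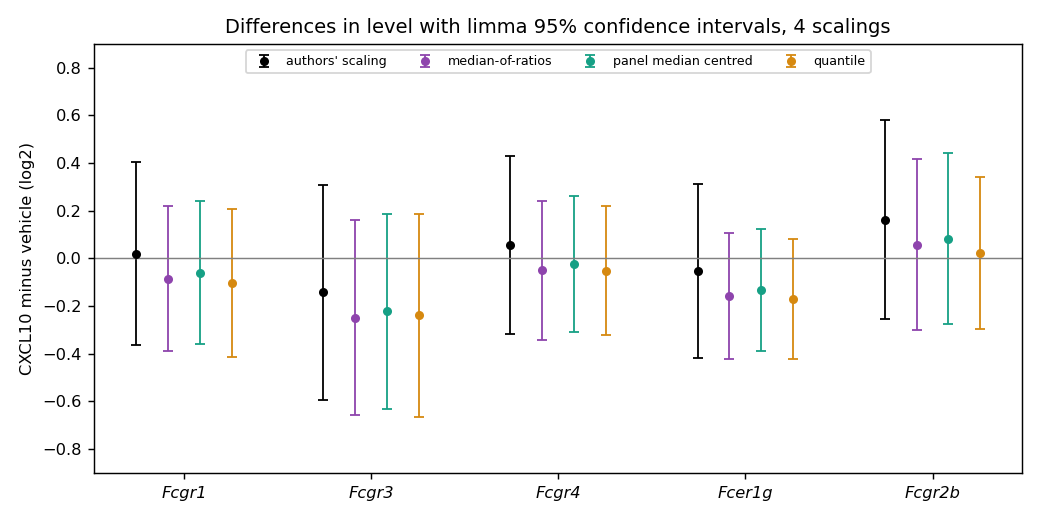
Difference in log2 level, CXCL10 minus vehicle, for each member under the authors' scaling and 3 others, with limma's 95% confidence intervals. Every interval includes 0, and Fcgr1 and Fcgr4 change sign between the authors' scaling and the others.

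Activating and inhibitory receptors were then compared within each tumour, as the log2 ratio of each activating gene to Fcgr2b. Such a ratio does not depend on a scaling by 1 factor per tumour. All 4 ratios, which share Fcgr2b, had lower means in CXCL10 tumours, as did 55.8% of the ratios of all 692 other genes to Fcgr2b, and that of Fcgr3 separated the groups. The Fcgr3 to Fcgr2b ratio was -4.26, -4.25, -4.14 and -4.51 in CXCL10 tumours, against -3.87, -3.95, -4.10 and -4.02 in vehicle tumours. All 4 CXCL10 tumours therefore lay below all 4 vehicle tumours, although tumours 2 and 4 of the CXCL10 group had the highest and the lowest level of Fcgr3 itself. The separation rests on a narrow gap between CXCL10 tumour 3 at -4.14 and vehicle tumour 3 at -4.10. Fcgr3 counts in those tumours were 740 and 758, and whether the gap exceeds counting error was not tested. After quantile normalization, which is not 1 factor per tumour, the groups overlapped, at -4.53 to -4.00 in CXCL10 tumours and -4.21 to -3.90 in vehicle tumours (exact permutation p = 0.114). The mean ratio was -4.29 ± 0.16 in CXCL10 tumours and -3.98 ± 0.096 in vehicle tumours (SD, n = 4 each), a difference of -0.31 or 0.809-fold. The two-sided exact permutation test over the 70 splits gave p = 0.0286, which is the smallest p it can give with 4 against 4. After adjustment over the 4 ratios computed it did not pass (exact permutation test, adjusted p = 0.114). A single ratio at the smallest possible p could not pass that adjustment, so this says nothing about the ratio. Nor did it pass when the ratios of all 692 other genes to Fcgr2b were fitted with limma (adjusted p = 0.909, 95% confidence interval of the difference -0.74 to 0.13). Among those 692 ratios, 20 were lower in all 4 CXCL10 tumours in the same way (2.89%) and 1 was higher. Mouse Fcgr2b and Fcgr3 are closely alike in their ligand-binding parts, and whether their probes share signal was not tested.

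The ratio of Fcgr1 to Fcgr2b was -3.72, -3.87, -3.65 and -3.59 in CXCL10 tumours, against -3.52, -3.34, -3.66 and -3.74 in vehicle tumours. It was below the vehicle mean in 4 of 4 CXCL10 tumours, but the groups overlapped. The difference was -0.14 (two-sided exact permutation p = 0.286, adjusted p = 0.381, limma 95% confidence interval -0.58 to 0.30). The ratio of Fcgr4 to Fcgr2b was -2.96, -3.22, -2.67 and -2.61 in CXCL10 tumours, against -2.60, -2.52, -3.02 and -2.90 in vehicle tumours. Its groups overlapped broadly, with a difference of -0.11 (exact permutation p = 0.543, limma 95% confidence interval -0.58 to 0.36) that became 0.01 without CXCL10 tumour 2.

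The ratio of the signalling chain Fcer1g to Fcgr2b was -2.52, -2.73, -2.50 and -2.17 in CXCL10 tumours, against -2.17, -2.09, -2.54 and -2.25 in vehicle tumours. Of the CXCL10 tumours 3 lay below the vehicle mean, and the groups overlapped. The difference was -0.21 (exact permutation p = 0.257, adjusted p = 0.381, limma 95% confidence interval -0.67 to 0.24). Averaged over the 3 activating receptors, the log2 ratio to Fcgr2b was -3.65, -3.78, -3.49 and -3.57 in CXCL10 tumours, against -3.33, -3.27, -3.59 and -3.55 in vehicle tumours. This average is given without a test, and its groups overlapped.

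**Figure D3:**
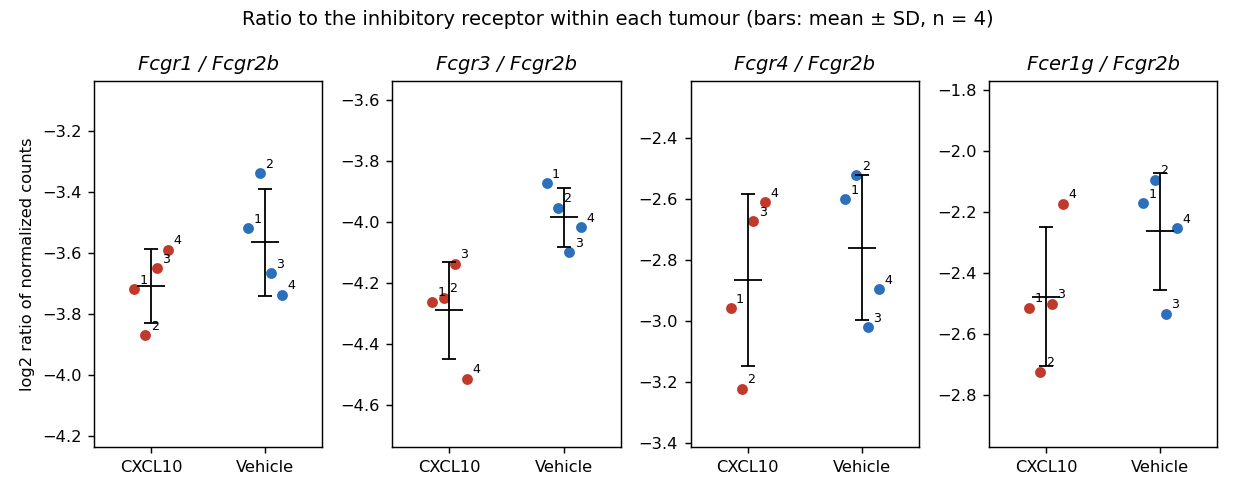
Log2 ratio of Fcgr1, Fcgr3, Fcgr4 and Fcer1g to Fcgr2b within each tumour, CXCL10 tumours on the left and vehicle tumours on the right, with the mean ± SD (n = 4 each). The groups do not overlap for Fcgr3 to Fcgr2b and overlap for the other 3 ratios.

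Tumours differed from each other more than the groups did, and on the authors' scaling the members moved together between them. CXCL10 tumour 2 had the highest level of its group for 5 of 5 members, as it did for 46.2% of all genes, and CXCL10 tumour 1 had the lowest for 4 of 5, as for 51.1% of all genes. The panel medians of those tumours, 8.87 and 8.58, were likewise the highest and the lowest of the 8, and the part of that shift in the members' levels was not tested. The SD was larger in the CXCL10 than in the vehicle group for 5 of 5 members and for 54.8% of all genes. For Fcgr3 the SD was 0.46 in CXCL10 tumours and 0.045 in vehicle tumours, a ratio of 10.2 that ranked 3 among the 693 genes. Its vehicle SD ranked 12 from the lowest and its CXCL10 SD only 60 from the highest, so the high ratio comes largely with a narrow vehicle group. The counting error of Fcgr3 was 4.37% at its lowest count, which was 523 in CXCL10 tumour 4 and not in the vehicle group. Vehicle counts of Fcgr3 ran from 686 to 758. Whether a vehicle group this narrow arose by chance, or is narrower than counting error alone would give, was not tested. For Fcgr2b the SDs were 0.40 and 0.12 in that order.

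**Figure D4:**
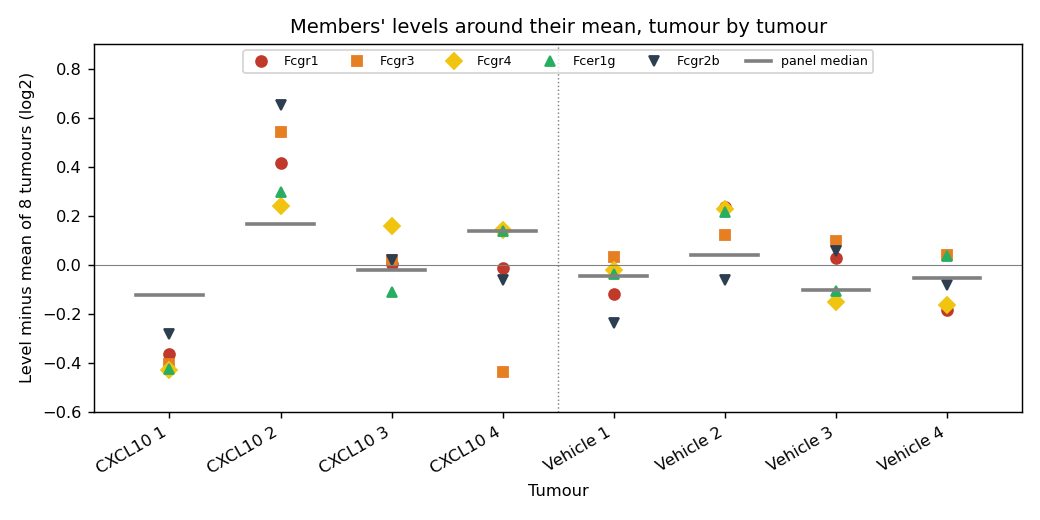
Level of each member in each tumour minus that gene's mean over the 8 tumours, on the log2 scale, with grey bars for the panel median treated the same way. All members are low in CXCL10 tumour 1 and high in CXCL10 tumour 2, and Fcgr3 is at its lowest in CXCL10 tumour 4.

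Across the 8 tumours, Pearson's r was above 0 for 10 of 10 pairs of members, between 0.49 and 0.85, and Spearman's rho lay between 0.40 and 0.86. The highest r was that of Fcgr1 and Fcgr4, at 0.85 (exact permutation p = 0.00675, adjusted p = 0.0292 over the 10 pairs) with a rho of 0.86 (exact permutation p = 0.0107, adjusted p = 0.0769). The lowest was that of Fcgr3 and Fcgr4, at 0.49 (exact permutation p = 0.210) with a rho of 0.48 (exact permutation p = 0.243). After adjustment over the 10 pairs, 6 passed by r and 0 by rho in the exact permutation tests, with 2 pairs under 0.05 by rho before adjustment. Over all pairs of the 693 genes the median r was 0.21, 66.1% were above 0, and 6.88% reached 0.76, the lowest r among the 6 pairs. Without the 2 tumours farthest from the median of the first gene, r ran from -0.24 for Fcer1g and Fcgr2b to 0.87 for Fcgr3 and Fcer1g, and that of Fcgr1 and Fcgr3 was 0.18 against 0.76. Over all 8 tumours r was 0.63 for Fcer1g and Fcgr2b and 0.58 for Fcgr3 and Fcer1g. Leaving out the tumours farthest from the median narrows the range of the first gene, which can by itself lower r. Whether any of these relations rests on the outermost tumours was therefore not tested. The median r of 0.77 over the 10 pairs was 0.70 with median-of-ratios scaling and 0.61 with quantile normalization. All 10 pairs stayed above 0 under both, with the highest at 0.75 and 0.87. That of Fcgr4 and Fcgr2b was 0.25 and 0.21 in that order, against 0.57 on the authors' scaling. For Fcer1g and Fcgr2b it was 0.37 and 0.053, against 0.63.

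The genes with the highest r to each member over the 8 tumours are given as a description, since each was picked as the top of 692. For Fcgr2b these were Cd163 (r = 0.96) and Mrc1 (0.91), scavenger and mannose receptors of macrophages, and the lymphocyte receptor gene Slamf6 (0.93). Their rho values were 0.81, 0.76 and 0.52 in that order, and the median r of Fcgr2b with all other genes was 0.32. For Fcgr1 they were Ifnar1 (0.97), a chain of the interferon alpha and beta receptor, the endosomal receptor gene Tlr8 (0.93) and the transporter gene Abcb1a (0.91). The r of Ifnar1 with Fcgr1 was 0.50 with median-of-ratios scaling, against 0.89 for Tlr8.

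For Fcgr4 the most alike were the chemokine receptor gene Ccr9 (0.96), the MHC class II transactivator gene Ciita (0.90) and Socs1 (0.89), which encodes a feedback inhibitor of cytokine signalling. For Fcer1g they were Il10ra (0.94), a chain of the interleukin-10 receptor, the cholesterol transporter gene Abcg1 (0.93) and the transcription factor gene Jun (0.90). For Fcgr3 they were Cd63 (0.93), a tetraspanin of lysosomes, Ncam1 (0.93), an adhesion molecule, and Ptgdr2 (0.93), a prostaglandin receptor. No member was among the 3 genes most alike to another member.

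Genes acting downstream of activating Fc receptors did not pass the test either. Of 12 kinases and adaptors measured, 9 had higher and 3 lower means in CXCL10 tumours (7 to 9 higher under the 3 other scalings), with a median of 0.15 close to that of all genes, and 0 had an unadjusted p under 0.05 by limma (1 or 2 under the other scalings). Syk, the kinase recruited by the gamma chain, had a mean of 10.04 ± 0.21 in CXCL10 tumours and 10.28 ± 0.033 in vehicle tumours (SD, n = 4 each), a difference of -0.24 (limma adjusted p = 0.330). Under the 3 other scalings it stood at -0.35, -0.32 and -0.35 in the order used above, each with an unadjusted limma p under 0.05, and adjusted p ran from 0.154 to 0.207. Lyn, a Src family kinase that phosphorylates both activating and inhibitory motifs, stood at 0.20 (limma adjusted p = 0.480). Inpp5d, the phosphatase recruited by Fcgr2b and the 1 inhibitory partner measured, had a mean of 8.53 ± 0.26 in CXCL10 tumours and 8.49 ± 0.21 in vehicle tumours (SD, n = 4 each). Its difference of 0.04 (limma adjusted p = 0.889) was below 0 under the 3 other scalings.

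A list meant for receptors that can pair with the gamma chain held 8 measured genes. It includes Osm (-0.19), which encodes a secreted cytokine and not a receptor, and the scavenger receptor gene Marco, whose pairing was not checked. Its counts and median therefore do not describe gamma chain partners alone. Of the 8 genes 6 had higher and 2 lower means (4 or 5 higher under the other scalings), with a median of 0.10. The smallest p in that list belonged to Lilra5, an activating myeloid receptor, at -0.40, Klrb1c, the NK1.1 receptor gene, at 0.29, and Fcer1a, the chain of the mast cell receptor that binds immunoglobulin E, at 0.33. Their limma adjusted p ran from 0.276 to 0.342. The beta chain of that same receptor, Ms4a2, stood at 0.21 (limma adjusted p = 0.666), and between 0.064 (without CXCL10 tumour 2) and 0.41 (without CXCL10 tumour 3) with 1 tumour left out. Phagocyte oxidase and phagocytosis genes held 7 higher and 6 lower means of 13, with a median of 0.03, but only 2 or 3 higher and a median below 0 under the other scalings. Among them Lamp2, a lysosomal membrane protein, stood at 0.27, the scavenger receptor gene Marco at 0.70 and Mertk, a receptor for dying cells, at -0.21, with limma adjusted p from 0.394 to 0.464. Marco was near the lowest counts of the panel, at 6 in 1 tumour, and its difference was 0.15 with quantile normalization, 0.30 without vehicle tumour 3, 0.39 without CXCL10 tumour 4 and 1.10 without vehicle tumour 1. That of Mertk was -0.32 with median-of-ratios scaling and with quantile normalization (limma adjusted p = 0.270 and 0.237, each under 0.05 before adjustment), and -0.36 without CXCL10 tumour 2.

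Fcgr1 is known as an interferon gamma-induced gene, so the interferon gamma pathway was set beside it. All 18 measured genes of that list had higher means in CXCL10 tumours (15 to 17 under the other scalings), as did 69.6% of all 693 genes, with a median of 0.32, and 0 passed over the 693 genes. Of them 7 had an unadjusted p under 0.05 by limma, and 4 to 6 under the other scalings. Of all genes 19% had such a p, and 17.3% to 18.2% under the other scalings. The groups separated for 2 of the 18, and for 7.79% of all genes on the higher side. Irgm2, an interferon-induced GTPase gene, and Psmb9, an immunoproteasome gene, both stood at 0.44 (limma adjusted p = 0.185 each), and the chemokine gene Cxcl9 stood at 0.91 (adjusted p = 0.208). In the same tumours T cell markers had higher means for 12 of 12 (11 or 12 under the other scalings) and an unadjusted limma p under 0.05 for 6 (2 or 3 under the other scalings), and their part in the pathway's values was not tested. Fcgr1 had a difference of 0.02.

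**Figure D5:**
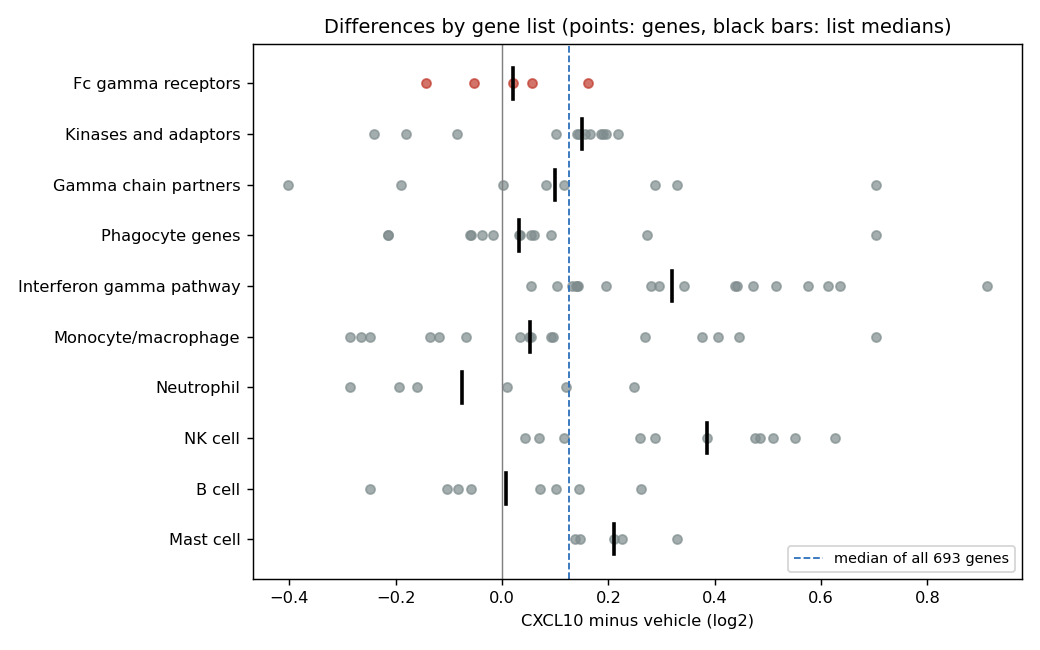
Difference in log2 level, CXCL10 minus vehicle, for each gene (points) of the lists named at the left, with black bars for list medians and a dashed line for the median of all 693 genes. The list of gamma chain partners includes the cytokine gene Osm and the scavenger receptor gene Marco. The 5 Fc gamma receptors lie between -0.14 and 0.16, and every interferon gamma pathway gene lies above 0 on the authors' scaling, against 15 to 17 of 18 under the 3 others.

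Markers of the cells that carry these receptors are given with their summed levels, as normalized counts on the linear scale. Their counts of higher means stand beside 69.6% over all genes. Of 16 monocyte and macrophage markers 10 had higher and 6 lower means, with a median of 0.05, whereas 5 to 7 were higher and the median was below 0 under the other scalings. Their sum ran from 51726 to 80758 in CXCL10 tumours and from 47451 to 57808 in vehicle tumours. Of each sum, 69.0% to 74.4% came from Lyz2 and Chil3, genes picked after their values were seen. CXCL10 tumour 2 had the highest sum of its group for 5 of the 10 marker lists, this one included. Within that list Cd86, a costimulatory ligand, stood at 0.41 (limma adjusted p = 0.197) and Ccr2, the receptor of inflammatory monocytes, at 0.38 (adjusted p = 0.394). Neutrophil markers had higher means for 3 and lower means for 3 of 6 (median -0.07, with 2 higher under each other scaling), with sums from 4110 to 9971 in CXCL10 tumours and from 5741 to 12706 in vehicle tumours. Most of each neutrophil sum came from S100a8 (difference -0.29, limma adjusted p = 0.667), a gene also picked after its values were seen.

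NK cell markers had higher means for 11 of 11 (median 0.39, with 9 higher under each other scaling), with sums from 4775 to 6671 in CXCL10 tumours and from 3694 to 5142 in vehicle tumours. An unadjusted limma p under 0.05 was found for 4 of the 11, beside 19% of all 693 genes. B cell markers had higher means for 4 and lower means for 4 of 8 (median 0.01, with 2 or 3 higher under the other scalings), with sums from 923 to 1051 in CXCL10 tumours and from 931 to 986 in vehicle tumours. The largest part of each B cell sum came from Blnk (difference 0.10), which is also in the list of kinases and adaptors above. Mast cell markers had higher means for 5 of 5 (median 0.21, with 4 or 5 higher under the other scalings), with sums from 1015 to 1794 in CXCL10 tumours and from 904 to 2266 in vehicle tumours. Most of each mast cell sum came from Cma1 (difference 0.15, limma adjusted p = 0.833). Blnk and Cma1 were picked after their values were seen. No marker of these 5 lists passed over the 693 genes, and none was at 0 in any tumour, the lowest count being 6 for Marco. The part of these cell types in the levels of the receptors was not tested.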

How the data were processed

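Per the file headers, the authors deposited log2 normalized counts of 693 genes in 8 tumours, from a panel of 782 probes of which 55 endogenous ones were pruned and 6 housekeeping genes served for normalization. The sources used here name neither instrument nor software. A coefficient of variation per probe, in percent, was deposited as well. Another 16 value columns match no sample label by name and were not used, so negative controls were not assessed. Out of log2, 100% of values were whole multiples of 1 step per tumour (tolerance 0.02), and the whole counts gave back the deposited coefficients for 693 of 693 genes.

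Levels were fitted in R 4.3.3 with limma 3.58.1 (lmFit, then eBayes without a trend), 4 against 4 tumours grouped by title, with Benjamini-Hochberg adjustment over all genes at 0.05. The fit was tested on simulated data. Ratios and correlations were tested by exact permutation over tumours (Python 3.11.15). The members and lists were chosen with earlier results of these data known. Named genes are the members, the 3 of smallest p per pathway list, at most 2 per marker list, and the 3 of highest r with each member; some results that this rule covers are not reported here. Alternatives covered the variance model, voom, 3 scalings, a pseudocount of 1, count minimums of 20 and 50 in at least 4 tumours, the title number as a block, and each tumour left out.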

Additional observations from a re-analysis of the deposited data

Results flagged for a closer look

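Within each group of 4, the outermost tumour was compared with the next one, and a set of 4 was picked out when that step exceeded a fixed share of the distance between its highest and lowest tumour, which happens by chance in about 1 of 20 sets. Of 86 sets checked, 3 were picked out, and all 3 lay in the CXCL10 group. For Fcgr4, CXCL10 tumour 1 was low at 10.32 (log2 level), and the 3 others lay between 10.89 and 10.99. For Mertk, a receptor for dying cells, CXCL10 tumour 2 was high at 8.67, and the others lay between 8.06 and 8.14. For Cd22, an inhibitory receptor of B cells, the same tumour was high at 8.10, with the others between 7.36 and 7.42.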

How the results depend on the processing

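Under 90 alternative fits of the 5 members 0 passed the threshold, with limma adjusted p from 0.250 to 0.986. Under 48 alternatives of the 4 ratios to Fcgr2b 0 passed, with adjusted p from 0.114 to 1. In the exact tests among these, a single ratio at the smallest possible p could not pass after adjustment over the 4 ratios. With tumours paired by number no ratio could pass, since the smallest exact p was 0.125. With median-of-ratios scaling, centring on the panel median and quantile normalization, the difference became -0.085, -0.059 and -0.10 for Fcgr1, -0.050, -0.024 and -0.051 for Fcgr4, and -0.063, -0.037 and -0.040 for Inpp5d. With 1 tumour left out, the difference ran from -0.11 (without CXCL10 tumour 2) to 0.15 for Fcgr1, from -0.015 (without CXCL10 tumour 2) to 0.21 for Fcgr4, and from -0.16 to 0.081 (without CXCL10 tumour 1) for Fcer1g. It ran from -0.027 (without CXCL10 tumour 2) to 0.28 for Fcgr2b, from -0.35 (without CXCL10 tumour 2) to -0.021 for Fcgr3, and from -0.056 to 0.14 for Inpp5d. The ratio of Fcgr4 to Fcgr2b ran from -0.19 to 0.012 (without CXCL10 tumour 2), and that of Fcgr3 from -0.36 to -0.23. The causes were not tested.

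Over all genes, 2 were called higher and 0 lower by limma. The higher count was 0 with a mean-variance trend, with voom weights, with each of the 3 other scalings, with a count minimum of 50 and with the replicate block, and ran from 0 to 3 with 1 tumour left out. The lower count was 1 with quantile normalization and ran from 0 to 2 with 1 tumour left out. Genes whose groups did not overlap on the higher side numbered 54, against 28 with median-of-ratios scaling, 24 with quantile normalization and 57 to 131 with 1 tumour left out. On the lower side they numbered 21, against 44 with median-of-ratios scaling, 34 with centring on the panel median, 38 with quantile normalization and 21 to 54 with 1 tumour left out. Leaving out a tumour can only keep or add genes without overlap, so on either side those counts could not fall. With quantile normalization the median of dendritic cell markers was 0.069 against 0.23, and that of fibroblast and matrix genes -0.41 against -0.27.

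Tumours share title numbers 1 to 4 across groups, but the correlations of same-numbered tumours' deviations over genes were 0.25, -0.32, 0.23 and -0.26, so the numbers were not taken as pairs. With the replicate block the limma adjusted p of the members ran from 0.604 to 0.938, and 0 passed. The number of tumours limits the exact tests: with 4 a group, the smallest two-sided exact permutation p is 0.0286, and 0.125 for 4 pairs.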
